A study of Mus musculus with 8 samples.

Results

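The genes described here are 10 that mark dendritic cells (DCs) or are needed for their development, read in hematopoietic stem and progenitor cells (HSPCs) that lacked *Zeb1*. The conventional group held *Xcr1*, *Clec9a*, *Batf3*, *Zbtb46*, *Cadm1* and *Naaa*, and the plasmacytoid group held *Siglech*, *Ccr9*, *Tcf4* and *Spib*. All 10 were found by symbol among the 54532 genes counted, and 8 of them were among the 13560 genes with enough reads to be tested, *Siglech* and *Spib* falling below that filter. They were selected with the counts of this same comparison known, so their values are given as a description, without a p-value, and the gene names say nothing of which cells carried the reads. The samples were Lin- C-KIT+ SCA-1+ (LSK) cells, the bone marrow fraction that holds the stem cells, taken from C57BL/6 mice of the genotype Zeb1 fl/fl;Mx1-Cre after injections of pIpC, which switch on the interferon-responsive *Mx1* promoter that drives Cre. Cells were collected 14 days after the last pIpC dose and sorted by the surface protein EpCAM into 4 EpCAM+ Zeb1-/- and 4 EpCAM- Zeb1-/- samples, the labels giving 4 mice per genotype. *Zeb1* deletion, Cre and pIpC were therefore common to both fractions, and no control mice were part of the comparison. The age of these mice was not given in the sources used here. For HSPC staining the study's methods list lineage antibodies to MAC1, GR1, TER119, B220, CD3e, CD4 and CD8a, a set without CD11c.

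Dendritic cells take up and present antigen to T cells. Conventional DCs fall into cDC1, which depend on BATF3 and IRF8 and excel at presenting antigen from dead cells to CD8 T cells, and cDC2, which depend on IRF4 and Notch2 and chiefly prime CD4 T cells. Plasmacytoid DCs (pDCs) depend on the E protein TCF4, carry Siglec-H and secrete type I interferon when they sense viral nucleic acid. All of them arise in bone marrow from FLT3-bearing progenitors downstream of LSK cells.

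Each library held 14114491 to 17073546 counted reads. Values below are reads per gene or scaled counts per 1000000 reads (CPM, each library's total adjusted by the TMM method), and fold changes are log2 values of EpCAM+ over EpCAM- from edgeR's quasi-likelihood fit across all tested genes, with a standard error (SE). Intervals and errors cover these 8 samples only, and reads were amplified without molecular identifiers. The sort was visible in *Epcam*, with 2818 to 3580 reads in EpCAM+ and 17 to 144 in EpCAM- libraries, and 129 to 373 reads of the targeted gene *Zeb1* remained in the 8 libraries, more in EpCAM+ (log2 fold change 0.72, SE 0.17, edgeR adjusted p = 0.00798). Gene totals do not show whether those reads covered the deleted part of *Zeb1*. Of the 13560 tested genes, 21.8% were called higher and 20.8% lower in EpCAM+ cells at an adjusted p under 0.05, and in 20.1% all 4 EpCAM+ values lay above all 4 EpCAM- values. With upper-quartile scaling in place of TMM, 3642 genes were higher and 2083 lower, against 2961 and 2818.

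Stretches in front of the RefSeq start sites of 4 members are shown because they include both kinds of pattern described below and could be read on the build of the deposited coordinates (GRCm38.p6), outside annotated exons. *Xcr1* and *Naaa* were both far higher in EpCAM+ cells, *Zbtb46* was not, and *Siglech* was the pDC gene with fewest reads apart from *Spib*. The stretch of *Xcr1* was chr9:123862030-123862279 on the minus strand, that of *Naaa* chr5:92278182-92278431 on the minus strand, that of *Zbtb46* chr2:181424389-181424638 on the minus strand and that of *Siglech* chr7:55767934-55768177 on the plus strand. The *Zbtb46* start used by RefSeq lies inside the gene span of the deposited table, which runs to base 181459426. Whether transcription starts there in these cells was not tested, so its window may not be a promoter. Capitals mark CACCTG, one of the E-box sequences that ZEB1 is known to bind, and TGANTCA, the sequence of AP-1 factors and of BATF with JUN, each searched on both strands. CACCTA was searched as well.
Xcr1: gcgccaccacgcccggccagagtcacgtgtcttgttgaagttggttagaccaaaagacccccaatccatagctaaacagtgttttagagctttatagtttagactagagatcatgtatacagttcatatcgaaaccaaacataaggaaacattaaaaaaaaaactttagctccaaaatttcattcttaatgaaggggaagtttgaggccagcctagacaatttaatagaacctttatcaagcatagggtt
Naaa: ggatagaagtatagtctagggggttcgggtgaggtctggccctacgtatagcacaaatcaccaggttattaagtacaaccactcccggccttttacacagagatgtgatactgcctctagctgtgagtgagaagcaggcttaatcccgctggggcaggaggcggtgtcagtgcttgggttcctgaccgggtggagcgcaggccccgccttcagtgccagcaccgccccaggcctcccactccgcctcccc
Zbtb46: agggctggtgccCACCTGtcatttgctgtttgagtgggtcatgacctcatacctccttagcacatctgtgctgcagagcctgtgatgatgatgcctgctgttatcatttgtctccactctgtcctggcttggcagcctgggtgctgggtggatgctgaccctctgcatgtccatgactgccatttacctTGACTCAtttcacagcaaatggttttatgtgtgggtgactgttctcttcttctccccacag
Siglech: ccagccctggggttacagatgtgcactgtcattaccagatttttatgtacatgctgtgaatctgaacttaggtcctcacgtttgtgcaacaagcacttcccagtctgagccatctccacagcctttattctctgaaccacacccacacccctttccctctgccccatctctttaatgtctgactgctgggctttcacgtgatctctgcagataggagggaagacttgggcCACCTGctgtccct
No motif of these 3 lay in the windows of *Xcr1* and *Naaa*. The window of *Zbtb46* held CACCTG starting 238 bases and TGANTCA starting 61 bases before the start site, and that of *Siglech* held CACCTG 20 bases before it. In 32851 RefSeq promoter windows of 250 bases, CACCTG occurred in 17.2%, CACCTA in 8.73% and TGANTCA in 6.75%. Windows not shown did not divide in the same way. That of *Ccr9*, a gene higher in EpCAM+ cells, held CACCTG 85 bases before its start site. Those of *Batf3*, also higher, and *Spib* held none of the 3 motifs. Whether a motif went with the direction of a gene was not tested. A match of letters is not a bound site. *Cadm1* and *Tcf4* had no entry in the promoter table, and 8 of the 10 members did.

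Among the conventional genes, *Xcr1*, *Clec9a*, *Batf3*, *Cadm1* and *Naaa* were higher in EpCAM+ cells, by log2 fold changes between 4.42 and 7.59, and *Zbtb46* was not. In these 5 of 6 genes every EpCAM+ library lay above every EpCAM- library, where 20.1% of all tested genes did, and the same 5 passed the threshold for higher genes, where 21.8% of all did. Nothing is read from these counts, since the genes were chosen on this contrast.

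*Xcr1* (chr9:123852315-123862029, minus strand) encodes the receptor for the chemokine XCL1 and is the surface marker that sets cDC1 apart. It had 2251, 202, 640 and 2018 reads in EpCAM+ replicates 1 to 4 and 13, 2, 2 and 7 in EpCAM- replicates 1 to 4. Replicates of the same number differed by 181-, 77.4-, 262- and 254-fold in CPM. The fitted log2 fold change was 7.59 (SE 0.98, n = 4 per fraction), and the EpCAM- side of it rested on 2 to 13 reads per library. *Clec9a* (chr6:129408862-129424763, plus strand), a lectin receptor for the actin of dead cells, had 420, 22, 92 and 405 reads in EpCAM+ libraries and 9, 0, 0 and 2 in EpCAM- libraries, a log2 fold change of 6.25 (SE 1.17). *Clec9a* shared 5.59% of its exonic bases with *Clec1b*, which had 44 reads or fewer in any library.

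*Batf3* (chr1:191097847-191108945, plus strand), the basic leucine zipper factor that cDC1 need to develop, had 285, 18, 53 and 209 reads in EpCAM+ and 10, 0, 5 and 9 in EpCAM- libraries (log2 fold change 4.42, SE 0.96). *Cadm1* (chr9:47530173-47857637, plus strand), a cell adhesion molecule by which cDC1 are recognized in several species, had 686, 84, 248 and 739 reads against 10, 5, 2 and 5 (6.16, SE 0.84). *Naaa* (chr5:92257659-92278170, minus strand), a lysosomal amidase that breaks down fatty acid ethanolamides and is abundant in cDC1, had by far the most reads of the group, with 5217, 601, 1413 and 4410 against 236, 68, 59 and 97 (4.56, SE 0.74). *Naaa* was also the one of these 5 genes with 59 reads or more in every EpCAM- library.

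**Figure D1:**
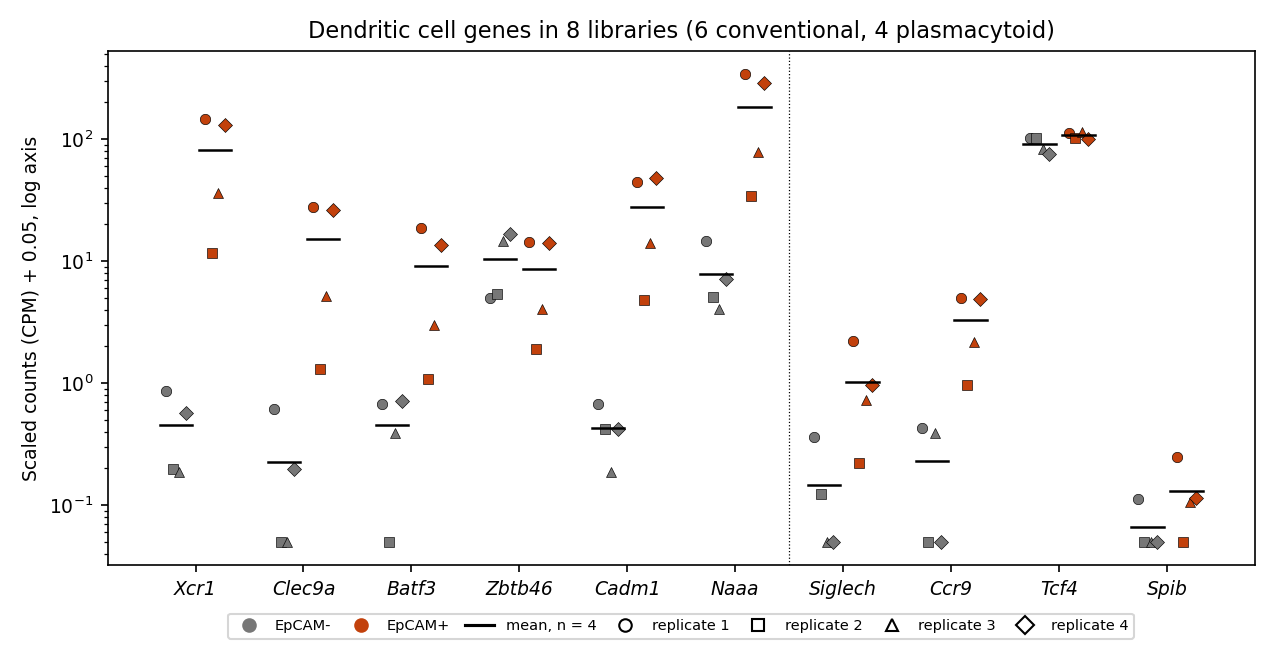
Scaled counts (CPM plus 0.05, log axis) of the 10 genes in 4 EpCAM- and 4 EpCAM+ Zeb1-/- libraries, each point a library, its shape the replicate and the bar the mean of 4. *Xcr1*, *Clec9a*, *Batf3*, *Cadm1*, *Naaa* and *Ccr9* are separated between the fractions, *Zbtb46* and *Tcf4* overlap, and *Spib* lies at 3 reads or fewer throughout.

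The difference was not equally large in every replicate. Within the EpCAM+ libraries the highest CPM of each conventional gene exceeded the lowest 12.8-fold for *Xcr1*, 22.0-fold for *Clec9a*, 18.3-fold for *Batf3*, 7.65-fold for *Zbtb46*, 10.1-fold for *Cadm1* and about 10-fold for *Naaa*. Replicate 2 was the lowest for all 6, replicate 3 came next, and replicates 1 and 4 were high. Over all tested genes the highest EpCAM+ library exceeded the lowest 1.28-fold in the median, 3.37% of genes reached 4-fold and 24.7% were lowest in replicate 2. Among the genes called higher, 5.47% reached 4-fold and 34.3% were lowest in replicate 2.

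The conventional genes kept their proportions while their level moved. For 1 read of *Cadm1* there were 2.40 to 3.28 reads of *Xcr1* in the 4 EpCAM+ libraries, and for 1 read of *Naaa* 0.336 to 0.458. *Batf3* gave 7.90 to 12.1 reads of *Xcr1* per read, *Clec9a* 4.98 to 9.18 and *Zbtb46* 6.12 to 10.3. These ranges span less than the 12.8-fold range of *Xcr1* itself. In bulk RNA, fewer cells of a type and less RNA per cell cannot be told apart, and this holds for every level given here. The sort gene moved far less: *Epcam* had 234, 161, 171 and 183 CPM in the same libraries, a 1.46-fold range.

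Genes outside the DC lists could also differ strongly between the EpCAM+ libraries, in another order. *Jchain*, which encodes the joining chain of secreted antibody, had 53916, 3902, 7671 and 3069 reads in EpCAM+ replicates 1 to 4, high in replicate 1 alone. Replicate 4, as rich in *Xcr1* as replicate 1, was thus the lowest for *Jchain*.

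**Figure D2:**
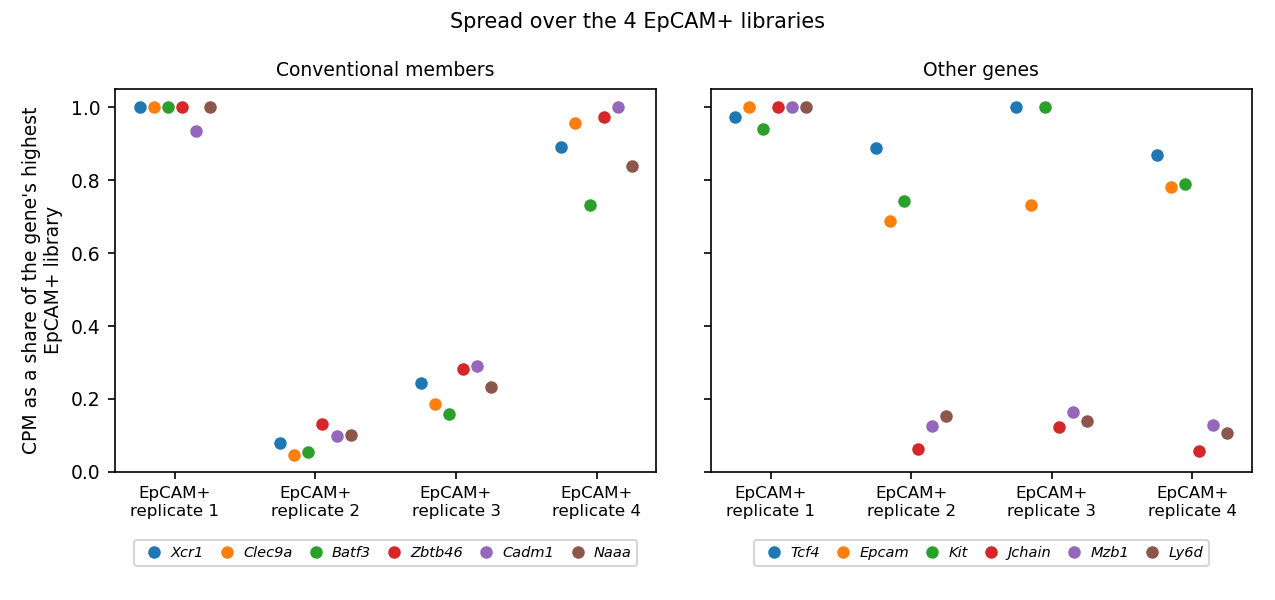
CPM in each EpCAM+ library as a share of the gene's highest EpCAM+ library, for the 6 conventional genes (left) and for *Tcf4*, *Epcam*, *Kit*, *Jchain*, *Mzb1* and *Ly6d* (right). The conventional genes are low in replicates 2 and 3 and high in 1 and 4, *Tcf4*, *Epcam* and *Kit* span 1.46-fold or less, and *Jchain*, *Mzb1* and *Ly6d* are high in replicate 1 alone.

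On the EpCAM- side, replicate 1 had the highest CPM of *Xcr1* (0.811), *Clec9a* (0.562), *Cadm1* (0.624) and *Naaa* (14.7). The same library had the most *Epcam*, with 144 reads against 51, 21 and 17. Whether EpCAM+ cells in that sample gave these reads was not tested. Without it the log2 fold change of *Xcr1* was 8.22, that of *Clec9a* 8.06 and that of *Ccr9* 4.65, while without EpCAM+ replicate 1 that of *Batf3* was 3.78.

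*Zbtb46* (chr2:181387762-181459426, minus strand), a zinc finger repressor expressed along the conventional DC lineage and also known from committed erythroid progenitors and endothelium, had the same order as the other conventional genes in EpCAM+ cells but not their difference. It had 219, 33, 72 and 215 reads in EpCAM+ libraries and 79, 72, 215 and 225 in EpCAM- libraries. The fractions overlapped: EpCAM+ replicates 1 and 4 (14.3 and 13.9 CPM) lay within the EpCAM- range of 4.93 to 16.5. EpCAM+ replicates 2 and 3 (1.87 and 4.02 CPM) lay below every EpCAM- library. Same-numbered replicates differed by 2.90-, 0.351-, 0.274- and 0.842-fold, so 1 pair was higher in EpCAM+ and 3 were lower. The fitted log2 fold change was -0.29 (SE 0.61), and leaving out 1 library at a time gave values from -0.66 to 0.05, positive without EpCAM+ replicate 2 and without EpCAM- replicate 4.

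The EpCAM- libraries rich in *Zbtb46* were those rich in erythroid transcripts. *Klf1*, the erythroid Krüppel-like factor, had 3057, 2408, 5582 and 6005 reads in EpCAM- replicates 1 to 4 and 187, 227, 234 and 409 in EpCAM+ libraries. *Car1*, carbonic anhydrase of red cell precursors, had 25611, 25750, 63187 and 80982 reads against 512, 283, 958 and 2444. Both were lower in EpCAM+ cells, by -4.21 (SE 0.38, edgeR adjusted p = 0.000134) and -5.72 (SE 0.77, adjusted p = 0.000474), the latter by -6.65 without EpCAM+ replicate 4. In *Zbtb46*, *Klf1* and *Car1* alike, EpCAM- replicates 3 and 4 stood above 1 and 2, whereas *Xcr1* had at most 13 reads in each. The part of erythroid progenitors in the *Zbtb46* reads was not tested.

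**Figure D3:**
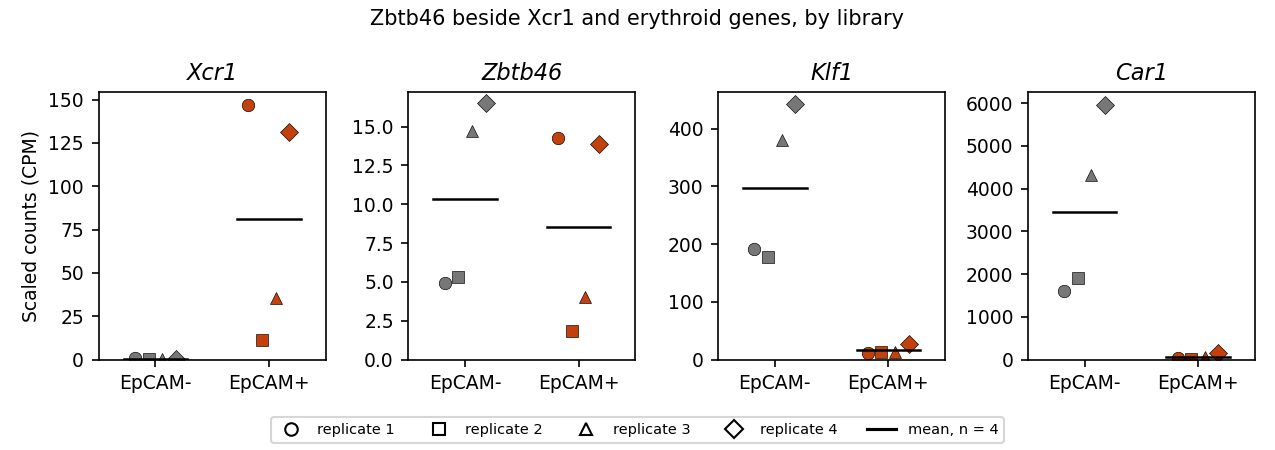
CPM of *Xcr1*, *Zbtb46* and the erythroid genes *Klf1* and *Car1* in each library, on linear axes that start at 0, each point a library and the bar the mean of 4. *Zbtb46* runs with *Xcr1* over the EpCAM+ libraries and with *Klf1* and *Car1* over the EpCAM- libraries, where *Xcr1* is at 0.811 CPM or less.

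The plasmacytoid genes differed among themselves. *Ccr9* was higher in EpCAM+ cells, *Tcf4* differed by a log2 value of 0.23, and *Siglech* and *Spib* had too few reads to be tested. By edgeR, 1 of the 2 plasmacytoid genes tested was called higher, where 21.8% of all genes were, and neither of them nor any of the 6 conventional genes was called lower, where 20.8% of all were. With the replicate number in the fit *Tcf4* was called as well, which makes 2 of 2. DESeq2, fitted to every gene with a read, called *Ccr9* and *Siglech* higher but not *Tcf4* or *Spib*. Its own default filter on low counts may have left *Spib* without an adjusted p. No member was lower at an unadjusted p under 0.05 or by DESeq2 either. Nothing is read from these counts, for the reason given above.

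*Siglech* (chr7:55768178-55778925, plus strand), the sialic acid binding lectin that defines mouse pDCs, had 33, 3, 12 and 14 reads in EpCAM+ libraries and 5, 1, 0 and 0 in EpCAM- libraries. Its CPM in EpCAM+ replicate 2 (0.170) lay below that in EpCAM- replicate 1 (0.312), so the fractions overlapped. *Spib* (chr7:44525993-44532071, minus strand), an Ets factor that pDCs use beside TCF4, had 3, 0, 1 and 1 reads against 1, 0, 0 and 0. That is at or under 3 reads in each library, the floor set here, which corresponds to 0.168 to 0.222 CPM, and no fold is given. A low level of *Spib* could not be detected at this depth.

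*Ccr9* (chr9:123678439-123784330, plus strand), a chemokine receptor for CCL25 that pDCs and thymus-seeding progenitors both carry, had 76, 16, 38 and 75 reads in EpCAM+ libraries and 6, 0, 5 and 0 in EpCAM- libraries (log2 fold change 4.03, SE 0.80). Its 5.48-fold range over the EpCAM+ libraries had replicate 2 lowest and replicates 1 and 4 highest, as in the conventional genes. *Ccr9* shared 21.5% of its exonic bases (2201 of 10260) with *Slc6a20a*, *Gm17200* and *AC165425.1*, and how reads in shared bases were counted was not given in the sources used here. *Tcf4*, the E protein that drives and keeps pDC identity and is also present in lymphoid progenitors and B cells, had 1707, 1804, 2055 and 1545 reads against 1654, 1398, 1207 and 1032. Replicates of the same number differed 1.08-, 0.989-, 1.39- and 1.32-fold, and the fitted log2 fold change was 0.23 (SE 0.11), or 0.24 (SE 0.09) with the replicate number in the fit, where it passed the threshold.

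To compare genes with each other, CPM was divided by gene length in kilobases. In EpCAM+ cells the order ran from *Naaa* (49.7 ± 40.6 CPM per kilobase, SD, n = 4) through *Xcr1* (18.3 ± 15.2), *Batf3* (5.66 ± 5.28), *Clec9a* (4.56 ± 4.18), *Tcf4* (3.92 ± 0.259), *Cadm1* (2.67 ± 2.08) and *Zbtb46* (1.00 ± 0.766) to *Ccr9* (0.313 ± 0.197), *Siglech* (0.289 ± 0.250) and *Spib* (0.0276 ± 0.0290). The ranges of each neighbouring pair in that order overlapped over the 4 libraries, which does not speak to the order within a library. In each EpCAM+ library *Naaa* stood above *Xcr1* and *Cadm1* above *Zbtb46*. In replicate 2 they stood at 9.16 against 2.57 and 0.456 against 0.22 CPM per kilobase. *Clec9a* and *Tcf4*, by contrast, changed places between libraries. In EpCAM- cells *Tcf4* led with 3.33 ± 0.519 CPM per kilobase, followed by *Naaa* (2.08 ± 1.30) and *Zbtb46* (1.22 ± 0.717), and the other 7 genes had 0.255 or less. The single step without overlap there was from *Zbtb46* down to *Batf3* (0.255 ± 0.192). By this measure *Naaa* stood at percentile 89.6 and *Xcr1* at 75.8 among all tested genes in EpCAM+ cells, and at 32.7 and 1.87 in EpCAM- cells. The deposited FPKM values, which use other gene lengths, put *Tcf4* (mean 62.9) well above *Xcr1* (18.4) in EpCAM+ cells. *Clec9a* (11.1) fell below *Cadm1* (11.8) there, and *Xcr1* went from rank 5 to 7 in EpCAM- cells. Over both fractions 7 ranks moved and 13 stayed, so the order of genes depends on the length used.

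The genes whose log2 CPM followed *Xcr1* most closely over the 8 libraries were *Fcrla* (Pearson r = 0.993), *Slamf8* (0.993), *Crybg1* (0.993), *Ffar4* (0.992) and *Hepacam2* (0.992). These 8 points share 2 fractions that differ strongly, and the values are a description. *Fcrla*, for example, had 706, 73, 194 and 732 reads in EpCAM+ and 14, 1, 3 and 4 in EpCAM- libraries. For *Siglech*, whose 0 to 33 reads per library carry little, the closest were *Cdip1* (0.989), *Filip1l* (0.982), *Arid4a* (0.978), *Arl8a* (0.978) and *Iqgap1* (0.978), and 4 of these differed between the fractions by log2 values of only 0.14 to 0.32.

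Other cDC1 genes were counted from a list of 22, of which 19 could be tested. In EpCAM+ cells 16 passed edgeR's threshold as higher (84.2%, beside 21.8% of all tested genes) and 3 did not pass. The median log2 fold change was 3.18 against 0.02 for all tested genes. None passed as lower, although *Cd24a* did at an unadjusted p under 0.05 and by DESeq2. *Hepacam2* had 731, 58, 261 and 743 reads in EpCAM+ and 8, 4, 1 and 5 in EpCAM- libraries (log2 fold change 6.48, SE 0.95, edgeR adjusted p = 0.000708). *Itgae*, the integrin CD103, had 257, 46, 88 and 431 against 3, 1, 1 and 4 (6.31, SE 0.93, adjusted p = 0.000711), and *Tlr11*, the profilin sensor, 491, 45, 163 and 380 against 0 in each. Without EpCAM+ replicate 4 the value of *Itgae* was 5.62. *Gcsam* (3.18, SE 0.38, adjusted p = 0.000304) and *Plekha5* (1.42, SE 0.14, adjusted p = 0.000172) rose with narrower ranges over the EpCAM+ libraries, 3.56- and 1.45-fold.

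The same low replicate 2 recurred across that list. It was the lowest EpCAM+ library for 17 of the 19 tested genes, and 11 of the 19 spanned 4-fold or more. *Irf8*, the factor that specifies cDC1 and is also needed in monocyte and pDC progenitors, had 7263, 854, 2093 and 5983 reads in EpCAM+ and 3138, 2128, 1948 and 1538 in EpCAM- libraries. EpCAM+ replicates 1 and 4 lay above all EpCAM- libraries and replicate 2 below all of them, and the log2 fold change of 0.78 (SE 0.56, adjusted p = 0.282) did not pass. It was 1.12 and passed when EpCAM+ replicate 2 was left out (edgeR adjusted p = 0.0415). *Nfil3*, which acts upstream of cDC1 specification, gave -0.28 (SE 0.23, adjusted p = 0.346). *Cd24a* gave -0.28 (SE 0.10, adjusted p = 0.0503), and fell under the threshold with the replicate number in the fit (-0.29, adjusted p = 0.0142), without EpCAM+ replicate 1 (-0.37) or without EpCAM- replicate 2 (-0.34), which makes 1 lower gene of that list in each of those fits.

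Genes shared by conventional DCs, for antigen presentation and costimulation, were a list of 23 with 19 tested. By edgeR 18 of them were higher (94.7%, beside 21.8% of all tested genes), and their median log2 fold change was 4.05 where that over all genes was 0.02. None was lower, by edgeR with or without adjustment or by DESeq2. *H2-Eb1*, an MHC class II chain, had 23245, 2093, 6909 and 23153 reads in EpCAM+ and 433, 48, 130 and 165 in EpCAM- libraries (6.08, SE 0.90, adjusted p = 0.000737). *Cd86*, a ligand for CD28, had 633, 161, 297 and 566 against 37, 23, 25 and 6 (4.05, SE 0.55, adjusted p = 0.000490), and *Cd83*, which stabilizes surface MHC class II, had 234, 40, 105 and 245 against 0, 0, 7 and 3 (5.76, SE 0.87, adjusted p = 0.000825). Left out singly, EpCAM- replicate 1 moved the value of *H2-Eb1* to 6.74 and EpCAM- replicate 3 that of *Cd83* to 6.97. *P2ry10*, a lysophospholipid receptor, was higher by 2.94 (SE 0.38, adjusted p = 0.000384). *Itgax*, which encodes CD11c, had 217, 25, 84 and 184 reads against 24, 21, 29 and 18 (2.33, SE 0.59, adjusted p = 0.0101). MHC class II and CD86 are also carried by B cells, so the list is not particular to DCs. Replicate 2 was the lowest EpCAM+ library for 17 of the 19 genes here too.

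**Figure D4:**
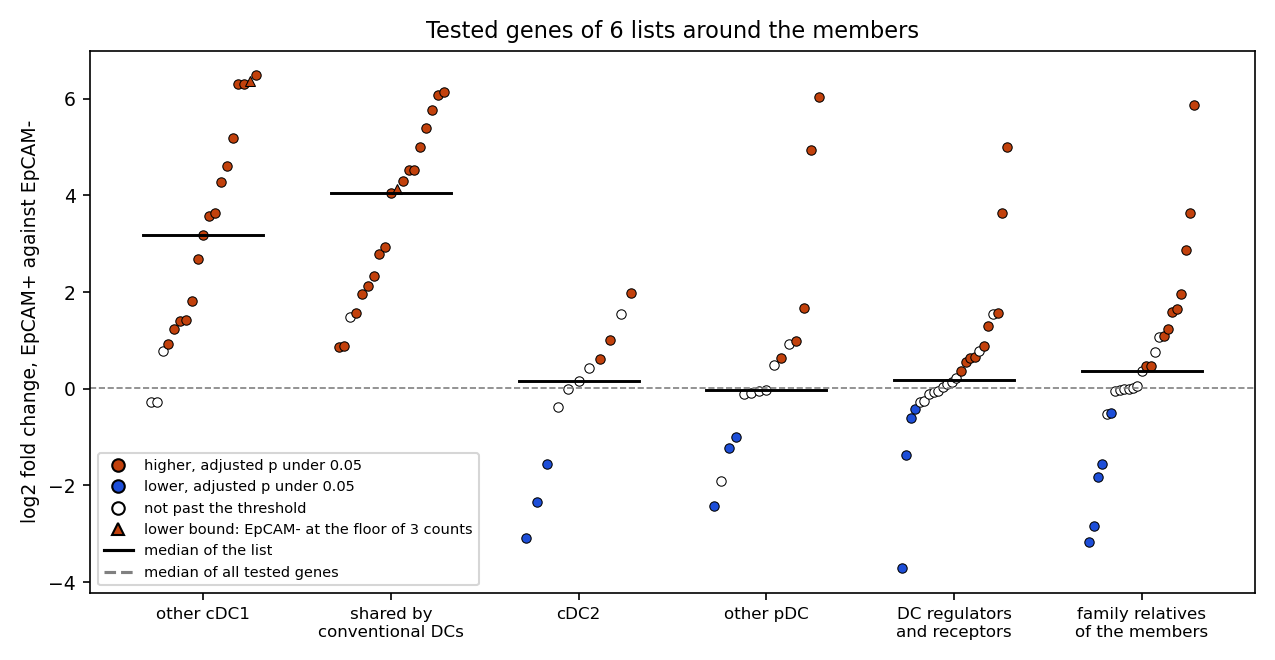
Fitted log2 fold changes of the tested genes of 6 lists, each point a gene, with the list median (black) and the median of all tested genes (grey, 0.02). The lists of cDC1 genes and of genes shared by conventional DCs have medians of 3.18 and 4.05, and the other 4 lists lie between -0.02 and 0.37 with genes on both sides. *Tlr11* and *Anpep*, at or under 3 reads in each EpCAM- library, are drawn at their lower bound.

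Genes of cDC2 were a list of 15, of which 11 were tested. Of these, 3 were higher (27.3%, beside 21.8% of all tested genes) and another 3 lower (27.3%, beside 20.8%), and the median was 0.17. Whether this list differed from the cDC1 list was not tested. *Esam*, an adhesion molecule of Notch-dependent cDC2 that is also found on stem cells, was higher by 1.97 (SE 0.34, adjusted p = 0.00150), with 1727, 2724, 1652 and 1127 reads in EpCAM+ and 735, 377, 341 and 176 in EpCAM- libraries, so that its highest EpCAM+ library was replicate 2, the lowest of *Xcr1*. *Notch2* was higher by 0.62 (SE 0.18, adjusted p = 0.0194), a call that was lost without EpCAM+ replicate 1 (0.53) or EpCAM- replicate 3 (0.54). *Cd4* was higher by 1.01 (SE 0.35, adjusted p = 0.0404), a call that stood only when EpCAM+ replicate 1 or EpCAM- replicate 2 was the library left out (0.83 to 1.35 over the 8 fits). Without EpCAM- replicate 3 the list had 1 higher gene. The C-type lectins *Mgl2* (-2.35, SE 0.45, adjusted p = 0.00266), *Clec12a* (-1.55, SE 0.34, adjusted p = 0.00469) and *Clec4a2* (-3.09, SE 0.79, adjusted p = 0.0109) were lower, the last by -2.09 without EpCAM- replicate 1. *Sirpa*, the surface marker of cDC2, gave 0.00 (SE 0.12, adjusted p = 0.991). *Irf4* had 38, 1, 5 and 7 reads against 0, 0, 1 and 0 and was not tested.

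Other pDC genes were found on both sides too. Of 24 listed, 15 were tested. Of these 5 passed as higher (33.3%, beside 21.8% of all tested genes), 3 as lower (20%, beside 20.8%) and 7 not at all. The median was -0.02, and *Klk1* and *Klk1b27* had no read in any library. *Irf7*, the factor behind interferon production and itself induced by interferon, was higher by 1.67 (SE 0.25, adjusted p = 0.000779), with 338 to 718 reads in EpCAM+ and 115 to 167 in EpCAM- libraries. *Runx2*, which pDCs need to leave the marrow, was higher by 0.64 (SE 0.16, adjusted p = 0.00918). *Atp1b1*, with 6 to 34 reads per library, was higher by 0.99 (SE 0.34, adjusted p = 0.0404). Its call was lost in 6 of the 8 fits that left out 1 library. *Bst2*, the antigen of the pDC antibody PDCA-1, gave -0.02 (SE 0.09, adjusted p = 0.864), and *Bcl11a*, a factor that pDCs need, gave -0.11 (SE 0.12, adjusted p = 0.451). The nucleic acid sensors were scarce, *Tlr7* with 10 to 40 reads in each library and *Tlr9* with 5 or fewer.

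Like *Jchain*, the pDC genes *Mzb1* and *Ly6d* had their highest level in EpCAM+ replicate 1. *Mzb1*, a chaperone of pDCs, marginal zone B cells and plasma cells, had 754, 109, 146 and 98 reads in EpCAM+ and 5, 2, 2 and 6 in EpCAM- libraries (6.03, SE 0.94, adjusted p = 0.000945). *Ly6d*, a surface protein of lymphoid progenitors, B cells and pDCs, had 758, 133, 124 and 81 against 9, 6, 4 and 13 (4.94, SE 0.88, adjusted p = 0.00175). The other 3 EpCAM+ libraries lay close together for both genes, at 6.18 to 8.16 CPM of *Mzb1* and 5.25 to 7.54 of *Ly6d*, and the part of plasma cells in their reads was not tested. Without that library the log2 fold changes were 4.68 and 3.54. *Ugcg* (-1.22, SE 0.23, adjusted p = 0.00217), *Cox6a2* (-2.43, SE 0.48, adjusted p = 0.00287) and *Plac8* (-1.0, SE 0.20, adjusted p = 0.00296) were lower, and of these *Ugcg* had 618 reads or more and *Plac8* 6107 or more in every library.

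Regulators of DC development and growth factor receptors counted 25 genes, of which 24 were tested. Among them 9 passed as higher (37.5%, beside 21.8% of all tested genes) and 4 as lower (16.7%, beside 20.8%), and the median was 0.18. *Id2*, the inhibitor of E proteins that all conventional DCs express and that opposes TCF4, had 4076, 613, 1359 and 4515 reads in EpCAM+ and 378, 129, 155 and 135 in EpCAM- libraries (3.63, SE 0.65, adjusted p = 0.00178). *Mycl*, the Myc family member of DCs, was higher by 4.99 (SE 0.91, adjusted p = 0.00197) or 5.92 without EpCAM- replicate 1, *Relb*, an NF-kB subunit, by 1.56 (SE 0.28, adjusted p = 0.00172), and *Etv6* by 0.36 (SE 0.08, adjusted p = 0.00571). *Flt3*, the receptor for the growth factor on which DCs depend, was higher by 0.88 (SE 0.21, adjusted p = 0.00694), with 5041 to 7151 reads against 1852 to 3733. *Csf1r*, the receptor of the monocyte and macrophage growth factor, was lower by -3.71 (SE 0.33, adjusted p = 0.000125), with 12, 31, 27 and 48 reads against 494, 308, 344 and 231. *Cebpa* (-1.38, SE 0.18, adjusted p = 0.000405), *Zeb2*, a relative of *Zeb1* that pDCs and cDC2 need (-0.60, SE 0.07, adjusted p = 0.000330), and *Csf2rb*, the shared chain of the GM-CSF receptor (-0.42, SE 0.15, adjusted p = 0.0438), were also lower. The *Csf2rb* call was lost without any 1 of EpCAM+ replicates 1, 2 and 3 and EpCAM- replicates 1 and 2 (-0.51 to -0.31 over the 8 fits).

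Family relatives of the members were 37 genes with 25 tested and a median of 0.37. Of these 10 rose (40%, beside 21.8% of all tested genes) and 5 fell (20%, beside 20.8%). *Cxcr3*, a chemokine receptor, ran with *Xcr1* (878, 88, 285 and 790 reads against 23, 1, 6 and 2) and was higher by 5.87 (SE 0.91, adjusted p = 0.000932), or 7.17 without EpCAM- replicate 1. *Clec1a*, a lectin receptor of the same gene cluster family as *Clec9a*, was higher by 2.86 (SE 0.40, adjusted p = 0.000576) and *Id3* by 1.58 (SE 0.27, adjusted p = 0.00140). *Clec7a*, the beta-glucan receptor of myeloid cells, was lower by -2.84 (SE 0.30, adjusted p = 0.000193). The myeloid Siglecs *Siglecf* (-1.83, SE 0.23, adjusted p = 0.000331) and *Siglece* (-3.16, SE 0.43, adjusted p = 0.000521) were lower as well. *Tcf3*, an E protein related to TCF4, was lower by -0.51 (SE 0.12, adjusted p = 0.00650), and *Tcf12* gave -0.02 (SE 0.10, adjusted p = 0.867).

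The summed level of each list in each library puts these patterns side by side. The 6 conventional members came to 593, 54.4, 141 and 519 CPM in EpCAM+ replicates 1 to 4 and to 10.9 to 25.4 in EpCAM- libraries. The genes shared by conventional DCs came to 19800, 2270, 5910 and 20900 against 771 to 1290, and the other cDC1 genes to 2610, 712, 1040 and 2310 against 712 to 831. In EpCAM+ replicate 2 the cDC1 sum lay at the low end of the EpCAM- range, while the other 2 sums, 54.4 and 2270, lay above the highest EpCAM- library. Much of the cDC1 sum came from genes abundant in both fractions, such as *Cd24a*, with 259 CPM in that library and 328 to 414 in EpCAM- libraries. Gene by gene, 13 of the 19 tested cDC1 genes lay above every EpCAM- library in EpCAM+ replicate 2, and 2 lay below. The same count was not made over all tested genes, so nothing is read from it. The other pDC genes came to 830 to 1120 CPM in EpCAM+ and 1170 to 1920 in EpCAM- libraries. That sum was mostly *Plac8* (mean 412 against 823 CPM) and *Ly6c2* (85.3 against 320), a monocyte surface antigen, so it does not describe the list, whose median fold change was -0.02.

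Markers of other cells that an LSK sort could hold were read beside these genes. The counts here and in the paragraphs that follow stand beside 21.8% higher and 20.8% lower among all tested genes. These short lists were not tested against those shares. Langerhans cells, DCs of skin that carry EpCAM, were listed by 7 genes: 3 of 6 tested were higher, their sum was 324 to 365 CPM against 203 to 284, and the defining *Cd207* had 3, 0, 1 and 3 reads in EpCAM+ and 0 in EpCAM- libraries. The abundant ones were not particular to that cell: *Mfge8*, a bridge to dying cells, was higher by 0.76 (SE 0.13, edgeR adjusted p = 0.00141), and *Cd1d1*, which presents lipids, gave 0.35 (SE 0.13, adjusted p = 0.0520), which passed with the replicate number in the fit (0.36), without EpCAM+ replicate 4 (0.41) or without EpCAM- replicate 1 (0.43). Of 8 tested B cell genes 2 were higher (sum 80.3 to 132 against 51.3 to 86.3 CPM), *Cd79a*, described further below, and *Ms4a1*. *Ms4a1* had 196, 21, 41 and 112 reads in EpCAM+ and 0, 0, 2 and 0 in EpCAM- libraries, in the EpCAM+ library order of *Xcr1*. Its fitted value was 7.1 (SE 1.12, edgeR adjusted p = 0.000995), or 6.38 without EpCAM+ replicate 1 and 9.52 without EpCAM- replicate 3. *Pax5* was at 0 in all 8 libraries, *Cd79b* at 601 to 1286 reads in each and *Vpreb1* at 31 to 72. *Cd79b* gave 0.30 (SE 0.14, adjusted p = 0.12), and passed with the replicate number in the fit (0.32) or without EpCAM- replicate 2 (0.47). Of 7 tested plasma cell genes 4 were higher (409 to 4010 against 190 to 287 CPM), whereas *Xbp1*, a factor of secretory cells, gave 0.08 (SE 0.20, adjusted p = 0.767) and *Fkbp11*, a chaperone, -0.31 (SE 0.17, adjusted p = 0.160), the latter passing with the replicate number in the fit. Monocyte and macrophage genes had 1 higher and 4 lower of 11 (642 to 957 against 526 to 1290 CPM). The lower ones were *Csf1r*, given above, *Cx3cr1* (-3.09, SE 0.2, edgeR adjusted p = 4.21e-05), *Cd14* (-2.28, SE 0.36, adjusted p = 0.000951) and *Adgre1* (-2.5, SE 0.74, adjusted p = 0.0202). The *Adgre1* call was lost without EpCAM+ replicate 1 or 3 or EpCAM- replicate 1. The higher one was *Lyz2*, lysozyme (0.68, SE 0.14, adjusted p = 0.00391), and *Cd68*, a lysosomal protein of macrophages, gave 0.27 (SE 0.24, adjusted p = 0.370).

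Neutrophil genes had 5 lower of 10 (1100 to 1860 against 12000 to 18600 CPM) and 5 without a call. Those without a call were *S100a8* (-0.15, SE 0.48), *S100a9* (0.17, SE 0.36), *Ltf* (-0.28, SE 0.58), *Ngp* (-0.8, SE 0.53) and *Camp* (-0.19, SE 0.48). *Ngp* passed as lower without EpCAM- replicate 2 (-1.16). *Prtn3* (-2.06, SE 0.21) and *Lcn2* (-2.05, SE 0.26) were among the lower ones. The most abundant of the list were the granule genes *Mpo*, *Elane* and *Ctsg*, also expressed in granulocyte and monocyte progenitors. *Mpo* had 8663, 12296, 12276 and 18119 reads in EpCAM+ and 195539, 132076, 161509 and 118821 in EpCAM- libraries (-3.74, SE 0.23, edgeR adjusted p = 3.81e-05), *Elane* gave -4.86 (SE 0.51, adjusted p = 0.000182) and *Ctsg* -3.46 (SE 0.42, adjusted p = 0.000326). T, NK and innate lymphoid genes had 2 higher of 4 (710 to 873 against 706 to 920 CPM), namely *Gata3* (1.80, SE 0.16, adjusted p = 0.000137) and the kinase gene *Lck* (1.34, SE 0.16, adjusted p = 0.000257). *Nkg7*, a cytotoxic granule protein that made up most of that sum, gave -0.13 (SE 0.11, adjusted p = 0.353). Erythroid and megakaryocyte genes had 4 lower of 7 (153 to 513 against 2010 to 6760 CPM), and *Pf4*, platelet factor, gave 0.15 (SE 0.70, adjusted p = 0.880).

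Genes of the LSK compartment itself were present in both fractions. Of 11 tested, 8 were higher, with sums of 2600 to 2970 CPM in EpCAM+ and 1540 to 2240 in EpCAM- libraries. *Kit* had 3988 to 5870 reads in EpCAM+ and 2096 to 3930 in EpCAM- libraries (0.45, SE 0.14, adjusted p = 0.0276), a call lost without EpCAM+ replicate 1 or 3 or EpCAM- replicate 2, 3 or 4 (0.32 to 0.47). *Cd34* (0.28, SE 0.13, adjusted p = 0.104) and *Cd48* (-0.32, SE 0.21, adjusted p = 0.238) did not pass, although *Cd34* did with the replicate number in the fit (0.29) or without EpCAM- replicate 2 (0.36). In the list of stroma, endothelium and epithelium 4 of 8 genes were tested, all of them epithelial and all higher (list sum 203 to 254 against 79.2 to 105 CPM). They were *Cdh1* (1.34, SE 0.23, adjusted p = 0.00151), the keratin genes *Krt18* (1.14, SE 0.10, adjusted p = 0.000123) and *Krt8* (1.98, SE 0.32, adjusted p = 0.00110), and *Cldn7* (5.55, SE 0.65, adjusted p = 0.000257), a tight junction protein, with 873, 186, 302 and 662 reads against 15, 11, 11 and 2, in the library order of *Xcr1*. The stromal and endothelial genes of that list had 2 reads or fewer per library, except *Cxcl12* (31) and *Lepr* (7) in EpCAM- replicate 4. Of the lineage antibody targets, *Itgam* had 25 to 85 reads per library, *Ly6g* 3 or fewer, *Cd3e* 1 or fewer, *Cd8a* 4 or fewer and *Cd4* 11 to 48, while *Ptprc*, of which B220 is 1 splice form, was higher by 0.63 (SE 0.14, adjusted p = 0.00492). Of 3 tested targets 2 were higher (173 to 248 against 122 to 170 CPM). The part of any of these cell types in the DC genes was not tested.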

How the data were processed

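RNA of EpCAM+ and EpCAM- Zeb1-/- LSK cells was amplified with the SMART-Seq v4 kit and 1 ng of cDNA was used per library for 150-bp paired-end sequencing. Per the labels and the study's methods, the authors aligned reads with STAR 2.6.1d to GRCm38.p6 and counted them per gene with featureCounts 1.5.0-p3. The strand setting, the treatment of multimapping reads and the annotation release were not given in the sources used here. The deposited table holds raw counts and FPKM, which the authors computed from gene length and mapped counts, for all 8 libraries. Its fold changes and p-values, from the authors' DESeq2 1.20.0 comparisons of all replicates and of each numbered pair, were not used. Versions are those of the submitters' processing notes. The median ratio of the listed gene length to the length implied by FPKM was 2.35, so FPKM served only as an alternative for the order of genes.

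Counts were scaled by TMM, filtered by filterByExpr and fitted with edgeR 4.0.16 (R 4.3.3, quasi-likelihood, EpCAM+ against EpCAM-), with Benjamini-Hochberg adjustment over all 13560 tested genes and a threshold of 0.05. The SE is the log2 fold change divided by the root of the F statistic. The fit was tested on simulated data. DESeq2 1.42.0, other scalings, other filters, the replicate number as a block and each library left out in turn made 15 alternatives. Depth was 14114491 to 17073546 counts per library, and values at or under 3 counts were treated as undetectable. Deviations of same-numbered EpCAM+ and EpCAM- libraries from their group means correlated by 0.205 to 0.356 (4 pairs), those of different numbers by -0.216 to 0.04 (12 pairs), so the numbers paired the samples, although the sources used here do not say what a number shares. The main fit did not use this pairing, so its SEs include differences between replicate numbers. With the replicate number in the fit *Xcr1* gave 7.62 (SE 0.16), *Zbtb46* -0.45 (SE 0.49) and *Irf8* 0.35 (SE 0.5, edgeR adjusted p = 0.588). The labels give 4 mice per genotype, but no source used here ties single libraries to separate mice. The p-values therefore measure only the spread between these samples, which may be technical.

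The members and lists were chosen with earlier results of these data known. There were 6 gene lists (other cDC1 genes, other pDC genes, cDC2 genes, genes shared by conventional DCs, DC regulators and growth factor receptors, family relatives) and 10 marker lists (Langerhans, B, plasma, monocyte and macrophage, neutrophil, T, NK and innate lymphoid, erythroid and megakaryocyte, LSK, lineage antibody targets, and stroma, endothelium and epithelium). Named were the 10 members, *Epcam* and *Zeb1*, up to 4 genes per direction of each list by adjusted p, up to 3 of each marker list by mean CPM, every lineage antibody target, and the 5 protein-coding genes most correlated with *Xcr1* and with *Siglech* in log2 CPM. *Tlr11*, *Irf8*, *Nfil3*, *Cd24a*, *Itgax*, *Sirpa*, *Irf4*, *Klk1*, *Klk1b27*, *Bst2*, *Bcl11a*, *Tlr7*, *Tlr9*, *Flt3*, *Tcf3*, *Tcf12*, *Cd207*, *Pax5*, *Cdh1*, *Cxcl12*, *Lepr*, *Clec1b* and *Anpep* were named after their values were seen. So were *Ms4a1*, *Cx3cr1*, *Cd14*, *Adgre1*, *Atp1b1*, *S100a8*, *S100a9*, *Ltf*, *Ngp*, *Camp*, *Prtn3* and *Lcn2*. A few results for single genes were left out and are not reported here. Promoter sequences were taken from RefSeq on GRCm38.p6, the 250 bases before each start site, cut where an annotated exon begins.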

Additional observations from a re-analysis of the deposited data

Results flagged for a closer look

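In 149 pairs of gene and fraction of 4 libraries, 12 had 1 library set apart from the other 3 by more than Dixon's 95% critical value. Chance flags about 1 in 20 such groups, and 5 of the 12 were high in EpCAM+ replicate 1. That library had 49.3 CPM of *Mzb1* (6.18 to 8.16 in the other EpCAM+ libraries), 49.6 of *Ly6d* (5.25 to 7.54), 36.3 of *Cd79a* (1.98 to 4.93) and 3520 of *Jchain* (199 to 429). It also had 211 CPM of *Ly6c2* (22.7 to 54.5). *Cd79a*, part of the B cell receptor, was higher by 3.26 (SE 0.89, edgeR adjusted p = 0.0144) and by 1.64 without that library. *Jchain* was higher by 12.87 (SE 1.56, edgeR adjusted p = 0.000307), a fitted value against 4 reads or fewer per EpCAM- library, or 10.91 without it. *Ly6c2*, a monocyte and plasma cell surface protein, gave -1.91 (SE 0.73, edgeR adjusted p = 0.0564), or -2.89 without EpCAM+ replicate 1 (adjusted p = 0.00905) and -1.97 with the replicate number in the fit (adjusted p = 4.06e-05).

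In EpCAM+ cells *Runx2* stood out in replicate 3 (55.8 CPM against 43.4 to 45.3), and in replicate 4 so did *Cox6a2* (2.08 against 0.782 to 0.915) and *Klf1* (26.5 against 12.2 to 13.1). In EpCAM- cells the single libraries were replicate 1 for *Id2* (23.6 CPM against 9.55 to 10.6), replicate 2 for *Cd4* (1.63 against 0.749 to 0.809) and *Zeb2* (87.3 against 75.3 to 77.0), and replicate 4 for *Xbp1* (167 against 239 to 249).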

How the results depend on the processing

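Over the alternatives that fitted the 8 tested members, log2 fold changes ran from 7.13 to 8.22 for *Xcr1* and 5.78 to 8.06 for *Clec9a*. The ranges were 3.78 to 4.79 for *Batf3*, 5.76 to 6.55 for *Cadm1*, 4.08 to 5.09 for *Naaa* and 3.65 to 4.65 for *Ccr9*. *Tcf4* ran from 0.15 to 0.32 and passed with the replicate number in the fit, and *Zbtb46* (-0.66 to 0.05) changed sign as given above. Requiring 10 counts in every library left 3 of the members in the fit. Of 925 alternative fits of the 63 other named genes, 881 kept direction and side of the threshold, 22 lost the call, 16 gained it and 6 changed sign. Signs changed when single libraries were left out for *Vpreb1* (-0.05 to 0.18, 0.09 with all 8), *Xbp1* (-0.16 to 0.21, 0.08 with all 8) and *Pf4* (-0.49 to 0.51, 0.15 with all 8), none of which was called. Requiring 10 counts in every library left 11937 genes and so lowered the counts of higher genes to 9 (other cDC1), 2 (other pDC) and 11 (shared by conventional DCs) and of lower genes to 1 (cDC2) and 3 (family relatives). The cDC1 list had 1 lower gene with DESeq2, with DESeq2 size factors in edgeR and with the replicate block, and 0 to 1 with a library left out. The cDC2 list had 5 higher genes with DESeq2, which fitted 25237 genes, and 1 to 4 with a library left out. The median log2 fold change of all genes was 0.02 with TMM, 0.11 with upper-quartile scaling or library totals and 0.14 with DESeq2 or no filter.

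The replicate block raised the calls over all genes to 3465 higher and 3353 lower. Of the list genes it changed the calls of *Tcf4* (given above) and, by log2 values of 0.29 to 1.23 in size, of *Cd24a*, *Rbpj*, *Spic*, *Clec2d*, *Cd1d1*, *Cd79b*, *Sdc1*, *Fkbp11*, *Thy1*, *Ppbp*, *Cd34* and *Gata2*, besides *Ly6c2*, and it changed no other call. What the replicate numbers share was not given. Members with 3 reads or fewer (*Spib*) or near that level (*Siglech*) could not be compared at this depth, and the EpCAM- levels of *Xcr1*, *Clec9a*, *Batf3*, *Cadm1* and *Ccr9* rest on 13 reads or fewer per library.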
